A study of Mus musculus with 6 samples.

Results

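The mouse mitochondrial genome carries 37 genes, 13 for mRNAs, 2 for rRNAs and 22 for tRNAs, and all 37 were present among the 55774 entries of the expression table. They were chosen by matching each Ensembl identifier to GENCODE M21 (GRCm38) and keeping every symbol that begins with mt-. The measurements came from wild-type (WT) blastocysts of ICR mice, whose dams were 6 to 8 weeks old. Embryos collected from the oviducts at the 2-cell stage grew for 75 h in CZB medium, an embryo culture medium, to which extracellular vesicles from human Fallopian tubes had been added. In the oEV-EMT group the vesicles came from donors with endometriosis. In the oEV-ctrl group they came from donors without it, for whom the sample labels name uterine fibroids while the study's text names another condition. Each group had 3 libraries, each made from a pool of 10 blastocysts, and no group without vesicles was analysed here. Nothing states that the pools came from separate cultures, so the p-values measure only the spread between these samples, which may be technical. The libraries were made from RNA selected with oligo(dT), so a transcript enters them through a poly(A) tail or an A-rich stretch.

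Mitochondrial DNA is a compact circle in which genes lie end to end without introns. Long precursor RNAs are copied from both strands by the polymerase Polrmt, and the tRNAs that sit between most other genes are cut out of them, which frees the mRNAs and rRNAs. Most of the mRNAs then receive short poly(A) tails. The mRNAs encode core subunits of the respiratory chain and of ATP synthase, which the embryo uses for oxidative phosphorylation. On the annotated circle 28 genes lie on the plus strand and 9 on the minus strand, the latter being *mt-Nd6* and 8 tRNAs. Of the 13 mRNA genes, 10 end with a full stop codon and 3 end with a single T, which the poly(A) tail completes to a stop codon in the RNA. The last 30 bases of the 3 genes that end in a single T are shown first, followed by *mt-Nd3*, the mRNA with the lowest log2 fold change here, and *mt-Nd6*, the only mRNA gene of the minus strand. Sequences are from the GENCODE M21 transcripts and read 5′ to 3′ along the RNA, with the stop letters in capitals.
mt-Co3: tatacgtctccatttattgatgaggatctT
mt-Nd4: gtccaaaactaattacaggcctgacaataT
mt-Cytb: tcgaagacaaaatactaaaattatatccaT
mt-Nd3: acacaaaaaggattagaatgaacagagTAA
mt-Nd6: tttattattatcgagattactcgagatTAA

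Transcripts of the mitochondrial genome made up a smaller part of the measured RNA in oEV-EMT blastocysts than in oEV-ctrl blastocysts. Values are FPKM, fragments per kilobase of gene relative to all fragments of the library, as deposited. The 37 genes held 3.93%, 4.05% and 4.84% of the summed FPKM in oEV-EMT libraries 1, 2 and 3, and 7.43%, 7.45% and 5.96% in oEV-ctrl libraries 1, 2 and 3. The means were 4.27% ± 0.498 and 6.95% ± 0.856 (SD, n = 3 per group), and the groups were apart (exact permutation test over the libraries, two-sided, p = 0.1, which is as low as 6 libraries permit). The mRNAs held 3.76% ± 0.466 of the sum in oEV-EMT and 6.04% ± 0.722 in oEV-ctrl. The rRNAs held 0.339% ± 0.0743 and 0.574% ± 0.145, and the tRNAs 0.171% ± 0.0570 and 0.336% ± 0.0697. In each of the 3 RNA classes the oEV-EMT libraries all lay below the oEV-ctrl libraries (p = 0.1 for each class by the exact permutation test). Weighting by gene length turns FPKM into a rough share of fragments, here only among genes with a length in GENCODE, which leaves out the unannotated entries. Of that sum the 37 genes held 7.36% ± 0.700 in oEV-EMT against 12.2% ± 1.88 in oEV-ctrl. A single unannotated entry held 15.3% to 19.0% of the summed FPKM in oEV-EMT and 19.7% to 31.5% in oEV-ctrl, so it too was lower in oEV-EMT. Without that entry in the sum the mitochondrial share was 5.14% ± 0.728 against 9.23% ± 1.64. In pooled embryos, fewer cells of a type and less RNA per cell cannot be told apart, and neither can a lower mitochondrial level from a higher level of other RNA.

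**Figure D1:**
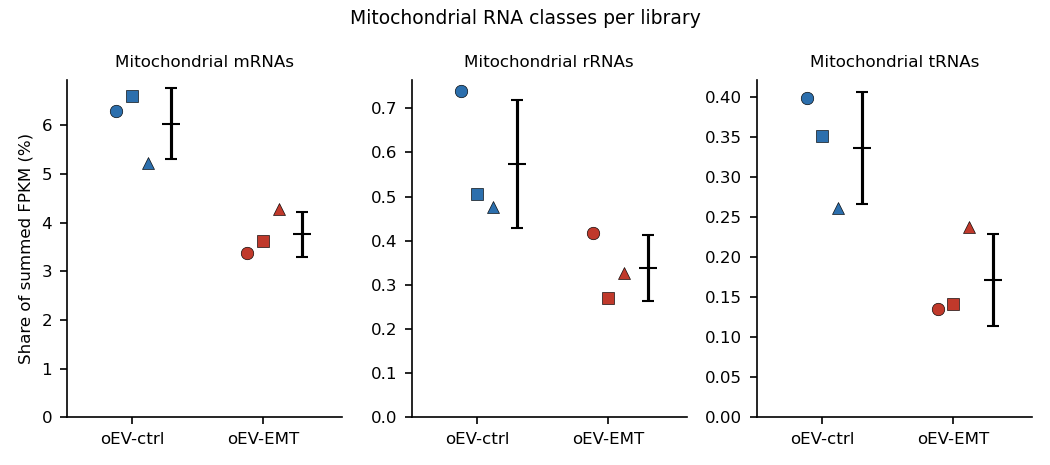
Percent of each library's summed FPKM held by mitochondrial mRNAs, rRNAs and tRNAs, with 1 point per library and the mean ± SD of each group (n = 3). In every class the 3 oEV-EMT points lie below the 3 oEV-ctrl points, with mRNA means of 3.76% and 6.04%.

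Gene by gene, 36 of the 37 members reached 1 FPKM in 3 or more libraries and were tested, and all 36 had a log2 fold change below 0. The remaining member, *mt-Ts2*, lay between 0.0843 and 0.245 FPKM in all libraries. A log2 fold change below 0 was found for 29.9% of the 11924 genes tested. In 26 of the 36 every oEV-EMT value lay below every oEV-ctrl value, against 4.34% of all tested genes. In 31 of the 36 the unadjusted p-value of limma was at most 0.05, against 2.55% of all tested genes that were lower in oEV-EMT at that threshold. After Benjamini-Hochberg adjustment over all tested genes, 0 of the 36 had a p-value of at most 0.05 in limma, as did 0% of all tested genes, and the adjusted values lay between 0.0951 and 0.889. The median log2 fold change was -0.86 over the 36 genes and 0.17 over all tested genes. For the 13 mRNAs it was -0.79, or -0.96 relative to all tested genes. The balance over all tested genes depends on the scaling, with 1527 higher and 304 lower in oEV-EMT at an unadjusted p of 0.05 as deposited but, once scaled by the median of ratios, 767 higher against 763 lower. The 36 members had fold changes below 0 under both. A log2 fold change of -1 or lower was reached by 12 of the 36, which were 10 tRNAs, 1 mRNA and 1 rRNA, and by 0.696% of all tested genes. Fold changes are on the log2(FPKM + 1) scale, which understates the difference of genes with low values.

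The mitochondrial ribosome contains 2 RNAs of the same genome, and both had lower values in oEV-EMT. *mt-Rnr1*, the RNA of the small subunit (chromosome M, 70 to 1024, plus strand), measured 1982, 1168 and 1519 FPKM in oEV-EMT and 5135, 2683 and 2438 FPKM in oEV-ctrl, with -1.08 as log2 fold change (SE 0.30, limma adjusted p = 0.174). *mt-Rnr2*, the RNA of the large subunit (1094 to 2675), measured 3428, 2501 and 2905 FPKM in oEV-EMT and 6352, 4114 and 4133 FPKM in oEV-ctrl, with -0.71 as log2 fold change (SE 0.22, limma adjusted p = 0.196). The groups did not overlap for either RNA, and library 1 was the highest in both groups. Within each library, the log2 ratio of *mt-Rnr1* to *mt-Rnr2* was -0.79, -1.10 and -0.94 in oEV-EMT and -0.31, -0.62 and -0.76 in oEV-ctrl. This difference of -0.38 between groups was picked out after the values were seen (exact permutation test, p = 0.1). The levels count what oligo(dT) retained of the rRNAs and are not their amount in the embryo.

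Complex I, which passes electrons from NADH to ubiquinone, has 7 subunits encoded here, and the log2 fold changes of the 7 mRNAs ran from -1.95 to -0.31, with -0.79 as their median. The groups were apart in 5 of the 7, against 4.34% of all tested genes that were lower without overlap. *mt-Nd3* (ENSMUSG00000064360, chromosome M, 9459 to 9806, plus strand) measured 318, 138 and 149.9 FPKM in oEV-EMT and 846, 557 and 823 FPKM in oEV-ctrl. Its log2 fold change of -1.95 (SE 0.32) had the smallest adjusted p of all members, 0.0951 in limma, which misses the threshold of 0.05, and leaving out 1 library gave limma adjusted p-values of 0.0378 without oEV-EMT 1 and from 0.108 to 0.325 without each of the others. *mt-Nd4* measured 1596, 1759 and 1827 FPKM in oEV-EMT and 3957, 3106 and 2855 FPKM in oEV-ctrl (log2 fold change -0.92, SE 0.19, limma adjusted p = 0.105). *mt-Nd5*, the longest mRNA gene, measured 610.3, 671 and 584 FPKM against 1003, 1099 and 1114 FPKM (log2 fold change -0.79, SE 0.17, limma adjusted p = 0.118). In both genes the lowest oEV-ctrl library lay well above the highest oEV-EMT library, and oEV-ctrl 1 stood high for *mt-Nd4*. *mt-Nd1* measured 6424, 5757 and 6599 FPKM against 10818, 10097 and 8865 FPKM, a log2 fold change of -0.66. *mt-Nd6* measured 246, 256 and 362 FPKM against 854, 472 and 452 FPKM, a log2 fold change of -0.998. The groups were apart for *mt-Nd1* and *mt-Nd6* as well, but oEV-ctrl 1 stood high for *mt-Nd6*. The other two subunits overlapped between groups. *mt-Nd2* measured 855, 1088 and 1368 FPKM against 1783, 1532 and 1233 FPKM (log2 fold change -0.47, limma adjusted p = 0.352). *mt-Nd4l*, the mRNA with the fold change nearest to 0, measured 682, 666 and 580.4 FPKM against 593, 857 and 986 FPKM (log2 fold change -0.31, SE 0.22, limma adjusted p = 0.522), with oEV-ctrl 1 below 2 of the oEV-EMT libraries.

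Complex IV, cytochrome c oxidase, reduces oxygen to water, and the mRNAs of its 3 mitochondrially encoded subunits had similar fold changes without overlap between groups. *mt-Co1* (chromosome M, 5328 to 6872, plus strand) measured 5277, 6607 and 7576 FPKM in oEV-EMT and 13609.9, 10780.2 and 9255 FPKM in oEV-ctrl, with -0.79 as log2 fold change. *mt-Co2* measured 4032, 5659.8 and 7384 FPKM against 12249, 9969 and 8351 FPKM, a log2 fold change of -0.87. In both genes oEV-EMT 3 came nearest to oEV-ctrl 3. *mt-Co3* measured 4046, 5559.8 and 4272 FPKM against 9365, 9354 and 7196 FPKM, a log2 fold change of -0.90. The 3 adjusted p-values lay between 0.118 and 0.174 in limma.

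Complex V, the ATP synthase, has *mt-Atp8* and *mt-Atp6* encoded here, and cytochrome b of complex III is encoded by *mt-Cytb*. *mt-Atp8* measured 6604, 6962 and 8783 FPKM in oEV-EMT and 14222, 12239 and 10855 FPKM in oEV-ctrl, with -0.74 as log2 fold change. *mt-Atp6* measured 6731, 6672 and 9742 FPKM against 16049.6, 13682 and 11135 FPKM, a log2 fold change of -0.83. Both had an adjusted p of 0.164 in limma and no overlap between groups. *mt-Cytb* measured 6226, 7353 and 8776 FPKM against 12328, 14990.1 and 8931 FPKM, a log2 fold change of -0.68 (SE 0.23, limma adjusted p = 0.218). Here the highest oEV-EMT library and the lowest oEV-ctrl library were close together, although they did not cross. The 3 mRNAs that end in a single T had a median log2 fold change of -0.90 and the 10 with a full stop codon one of -0.79.

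**Figure D2:**
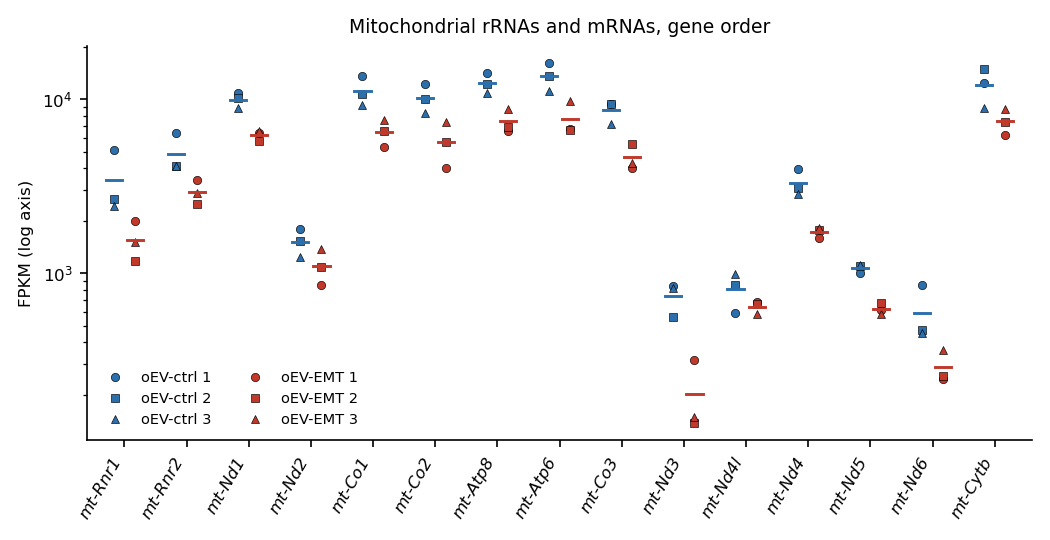
FPKM of the 2 rRNAs and the 13 mRNAs in each library on a log axis, in the order of the genes on the mitochondrial genome. The oEV-EMT points lie below the oEV-ctrl points for all genes but *mt-Nd2* and *mt-Nd4l*, where they overlap, and the gap is widest for *mt-Nd3*.

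The levels of the mRNAs differed far more from each other than between groups. *mt-Atp6* was the highest in both groups, with means of 7715 FPKM ± 1756 in oEV-EMT and 13622 FPKM ± 2458 in oEV-ctrl (SD, n = 3). The lowest was *mt-Nd3* in oEV-EMT, at 202 FPKM ± 100.5, and *mt-Nd6* in oEV-ctrl, at 593 FPKM ± 227. The highest mean was 38.2 times the lowest in oEV-EMT and 23.0 times the lowest in oEV-ctrl. At the top of the order *mt-Atp6*, *mt-Cytb* and *mt-Atp8* lay within their spread of each other in both groups. The coefficient of variation between libraries of a group had a median over mRNAs of 17.7% in oEV-EMT and 18.1% in oEV-ctrl. The libraries kept an order across the genes, with oEV-ctrl 1 the highest oEV-ctrl library for 10 of the 13 mRNAs and oEV-EMT 3 the highest oEV-EMT library for 9 of the 13.

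Several mRNA genes cannot be measured alone, because the nuclear genome contains copies of mitochondrial DNA. A search of the annotated transcripts for identical stretches of 50 bases found 10 nuclear genes that share sequence with 8 of the mRNAs, counting pairs in which either partner had at least 10% of its stretches in common. In 7 of these nuclear genes at least 50% of the stretches were shared, and all 7 lie side by side on chromosome 1 between 24611535 and 24616197 on the minus strand. They are *Gm28439*, *Gm10222*, *Gm28438*, *Gm28437*, *Gm10925*, *Gm28661* and *Gm29216*, which match parts of *mt-Nd4*, *mt-Nd4l*, *mt-Nd3*, *mt-Co3*, *mt-Atp6*, *mt-Co2* and *mt-Co1*. The alignment took in 483 of the 492 bases of *Gm29216*, 342 of the 345 of *Gm28438* and all bases of the others. Over the aligned bases of all 7 pairs there was 1 difference, A1066T in *mt-Co1* against *Gm29216*, with positions counted from the first base of *mt-Co1*. The 60 bases of *mt-Co1* from position 1063 to 1122 and the matching bases of *Gm29216* are shown because they hold that single differing base, which is in capitals.
mt-Co1: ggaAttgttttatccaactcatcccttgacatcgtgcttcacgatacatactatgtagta
Gm29216: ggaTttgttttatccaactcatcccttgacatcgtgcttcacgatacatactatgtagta

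The 7 copies had values of the same order as the mitochondrial genes they match. The value of *Gm10925* was 0.981 to 1.00 times that of *mt-Atp6* over the 6 libraries, and that of *Gm28661* was 0.916 to 0.928 times that of *mt-Co2*. For *Gm28438* and *mt-Nd3* this ratio ranged from 0.844 to 3.26, so the split between gene and copy was uneven. Each mRNA was therefore also summed with the nuclear genes that share its sequence. *mt-Nd3* with *Gm28438* measured 586, 591 and 475 FPKM in oEV-EMT and 2471, 2347 and 1519 FPKM in oEV-ctrl. The coefficient of variation was 11.9% for the sum and 49.7% for *mt-Nd3* alone in oEV-EMT, and 24.5% and 21.6% in oEV-ctrl. The log2 difference of the group means was -1.94 for the sum and -1.88 alone. *mt-Co1* moved most, from -0.79 alone to -0.95 in the sum, and its coefficient of variation in oEV-ctrl was 29.7% for the sum and 19.7% alone. The sums add FPKM of genes of unlike length, such as 492 bases for *Gm29216* and 1545 for *mt-Co1*, so they are not levels of a single gene. Over the 8 mRNAs with such copies the log2 difference of the sums ranged from -1.94 to -0.39 with a median of -0.84, against -0.83 alone, and 6 of the 8 sums did not overlap between groups, the same 6 as alone (exact permutation test, p = 0.1 for each). The 5 mRNAs for which no annotated nuclear gene reached the limit for shared sequence, *mt-Nd1*, *mt-Nd5*, *mt-Nd6*, *mt-Cytb* and *mt-Atp8*, had a median log2 fold change of -0.74 and no overlap in any of the 5. For *mt-Atp8* a copy outside the annotated genes was not tested. It begins between *mt-Co2* and *mt-Atp6*, which lie 230 bases apart, and their copies on chromosome 1 lie 233 bases apart around a stretch that was not searched. The tRNAs *mt-Ts1*, *mt-Td*, *mt-Tk*, *mt-Tg* and *mt-Tr* also lie between mRNA genes that have copies there. For these tRNAs, too, a copy outside the annotated genes was not tested.

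**Figure D3:**
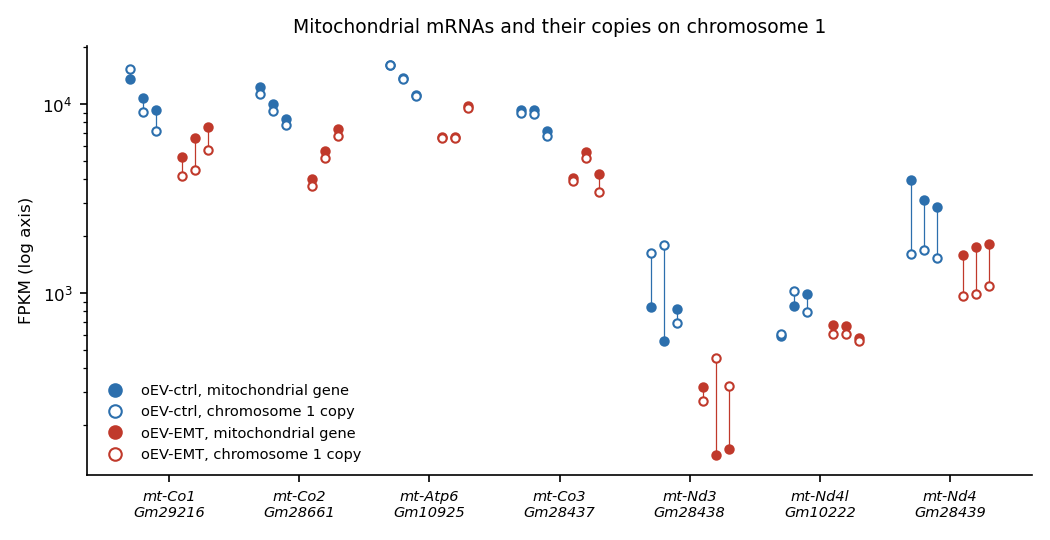
FPKM of the 7 mRNAs with a copy on chromosome 1 (filled points) and of that copy (open points) on a log axis, joined by a line in each library. The oEV-EMT points lie below the oEV-ctrl points for all genes and copies but *mt-Nd4l* and *Gm10222*. The distance between gene and copy varies between libraries for *mt-Nd3* and *Gm28438*.

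Neighbouring and overlapping genes were compared within libraries, where the scaling between libraries drops out. *mt-Atp8* and *mt-Atp6* share 43 bases of 1 transcript, and their log2 ratio differed between groups by 0.09 (exact permutation test, p = 0.2). *mt-Nd4l* and *mt-Nd4* share 7 bases and also 1 transcript, and their log2 ratio was -1.23, -1.40 and -1.65 in oEV-EMT and -2.74, -1.86 and -1.53 in oEV-ctrl. That difference of 0.62 came mostly with oEV-ctrl 1, and the groups overlapped (exact permutation test, p = 0.2). Both genes have copies on chromosome 1. Over the libraries *mt-Nd4l* held 45.4% to 55.5% of the sum with its copy and *mt-Nd4* 62.2% to 71.1%. The ratio of these genes also depends on that split, whose part was not tested. *mt-Nd6* lies opposite the end of *mt-Nd5*, with 14 bases of overlap, and the strand of reads is not stated. Against the mean of the other mRNAs, the log2 level of *mt-Nd6* was -3.25, -3.26 and -2.90 in oEV-EMT and -2.50, -3.24 and -3.15 in oEV-ctrl, a difference of -0.17 with overlap (exact permutation test, p = 0.5). It turned to 0.056 without oEV-ctrl 1. Over all genes of a strand, the median log2 fold change was -0.79 for the 27 tested on the plus strand and -0.9998 for the 9 on the minus strand.

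The tRNAs bring amino acids to the mitochondrial ribosome and are between 59 and 75 bases long, while the library fragments were several times longer. A fragment assigned to a tRNA therefore reaches beyond it. The tRNA class also rests on far fewer fragments, between 2864 and 8066 per library by a rough depth inferred from the values, against at least 933829 for the mRNAs. Of the 21 tRNAs tested 13 were lower without overlap between groups, against 4.34% of all tested genes. In 18 of the 21 the unadjusted p was 0.05 or less in limma, against 2.55% of all tested genes that were lower at that threshold. After adjustment 0 passed, as did 0% of all tested genes, and the median log2 fold change of the tRNAs was -0.9998. Relative to the tRNAs, the log2 of the summed mRNA level was 0.32 higher in oEV-EMT, with overlap between groups (exact permutation test, p = 0.3). The sequences shown belong to the tRNAs *mt-Td* and *mt-Tr*, with low fold changes, and *mt-Tf* and *mt-Ti*, the tested tRNAs with the fold changes closest to 0, and the anticodon is in capitals.
mt-Td: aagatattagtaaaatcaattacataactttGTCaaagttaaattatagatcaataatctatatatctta
mt-Tr: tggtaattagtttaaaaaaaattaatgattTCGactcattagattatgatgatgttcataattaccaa
mt-Tf: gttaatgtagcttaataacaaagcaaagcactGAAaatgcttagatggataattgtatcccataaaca
mt-Ti: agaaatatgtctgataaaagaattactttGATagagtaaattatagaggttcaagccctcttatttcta

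The lowest fold change of all members was that of *mt-Td*, the tRNA for aspartate (chromosome M, 6942 to 7011, plus strand), which measured 59.98, 26.9 and 206 FPKM in oEV-EMT and 542, 324 and 363 FPKM in oEV-ctrl (log2 fold change -2.50, SE 0.74, limma adjusted p = 0.229). *mt-Tv*, for valine, lies between the rRNAs and measured 28.5, 7.88 and 24.9 FPKM against 114, 59.9 and 84.9 FPKM (log2 fold change -2.16, SE 0.47, limma adjusted p = 0.152). *mt-Tr*, for arginine, follows *mt-Nd3* and measured 26.3, 9.02 and 28.4 FPKM against 63.0, 63.0 and 74.99 FPKM (log2 fold change -1.76, SE 0.38, limma adjusted p = 0.133). None of the 3 overlapped between groups, and oEV-EMT 2 was the lowest library in each. *mt-Tg*, for glycine, precedes *mt-Nd3* and measured 10.7, 6.92 and 9.28 FPKM against 22.4, 28.8 and 17.8 FPKM (log2 fold change -1.26, limma adjusted p = 0.105). *mt-Tq*, for glutamine on the minus strand, measured 168, 176 and 127 FPKM against 322, 367 and 256 FPKM (log2 fold change -0.9998). *mt-Tt*, for threonine, measured 64.9, 36.7 and 45.8 FPKM against 139, 102 and 67.1 FPKM (log2 fold change -1.03). These 3 were also apart between groups. *mt-Tm*, *mt-Tk*, *mt-Tl2*, *mt-Te* and *mt-Th*, for methionine, lysine, leucine, glutamate and histidine, had log2 fold changes from -0.86 to -0.50 without overlap. *mt-Ts1*, for serine, measured 3.38, 1.84 and 12.1 FPKM against 27.9, 16.2 and 14.1 FPKM, and *mt-Tp*, for proline, measured 2.54, 17.7 and 4.46 FPKM against 17.8, 32.9 and 21.3 FPKM. These rest on as few as 2.72 and 6.25 fragments by the inferred depth, so their fold changes of -1.84 and -1.77 are poorly determined.

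A run of 5 tRNAs lies between *mt-Nd2* and *mt-Co1*, *mt-Tw* on the plus strand and *mt-Ta*, *mt-Tn*, *mt-Tc* and *mt-Ty* on the minus strand. They carry tryptophan, alanine, asparagine, cysteine and tyrosine. *mt-Tn*, the highest tRNA, measured 277, 397 and 792 FPKM in oEV-EMT and 1385, 1043 and 661 FPKM in oEV-ctrl, and *mt-Tw* measured 143, 123 and 439 FPKM against 883, 535 and 389.8 FPKM. In all 5 genes oEV-EMT 3 was the highest oEV-EMT library and lay above oEV-ctrl 3, the lowest oEV-ctrl library. The groups thus overlapped in 5 of 5, although the median log2 fold change of -1.15 was lower than that of all tRNAs.

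The tRNAs *mt-Tf*, *mt-Tl1* and *mt-Ti* lie near the start of the annotated sequence, where *mt-Tf*, for phenylalanine, holds the first 68 bases and had the fold change nearest to 0 of all members. *mt-Tf* measured 126, 88.8 and 123 FPKM in oEV-EMT and 113, 111 and 128 FPKM in oEV-ctrl, with -0.07 as log2 fold change (SE 0.21, limma adjusted p = 0.889), and its sign turned under another scaling. *mt-Ti*, for isoleucine, measured 45.8, 33.0 and 27.6 FPKM against 38.9, 53.8 and 46.6 FPKM (log2 fold change -0.40, limma adjusted p = 0.457). *mt-Tl1*, for leucine, measured 135, 164 and 59.0 FPKM against 151, 153 and 179.8 FPKM (log2 fold change -0.55, limma adjusted p = 0.469), and without oEV-EMT 3 its fold change was -0.11. All 3 overlapped between groups, whereas *mt-Rnr1*, *mt-Tv*, *mt-Rnr2* and *mt-Nd1*, which lie among them, did not.

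**Figure D4:**
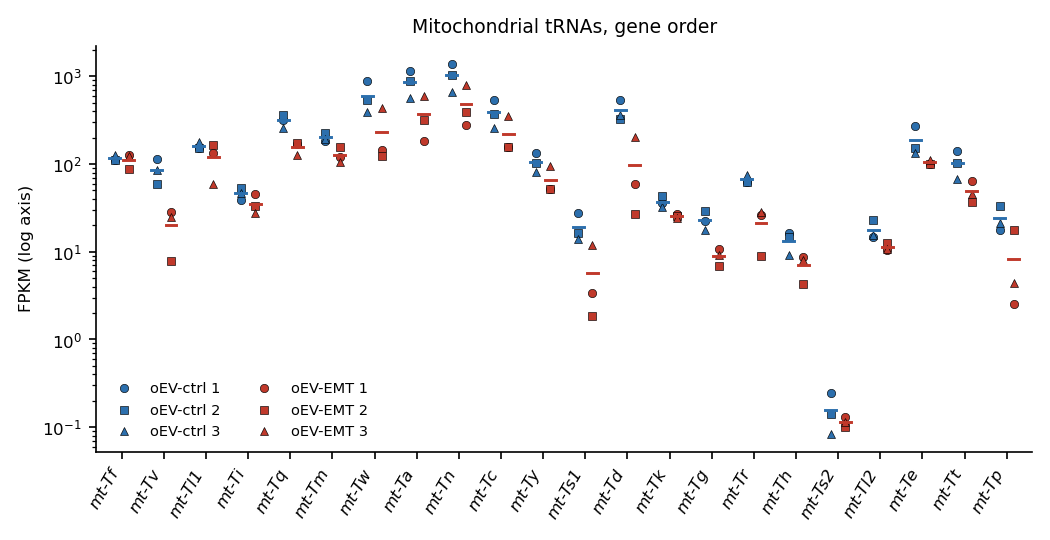
FPKM of the 22 tRNAs in each library on a log axis, in genome order. The groups are apart for 13 of the 21 tested tRNAs, oEV-EMT 3 stands above the other oEV-EMT libraries from *mt-Tw* to *mt-Ty*, and *mt-Ts2* lies below 1 FPKM throughout.

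Position on the circle, gene length and base composition showed no strong relation with the fold change. Over the 13 mRNAs, Spearman's rho of the log2 fold change was -0.30 with the order on the genome, 0.08 with length, 0.44 with GC content and 0.27 with the mean level. Over the 21 tested tRNAs the corresponding values were -0.23, -0.02, -0.09 and -0.09. These are descriptions across genes that share precursors and libraries. Low fold changes did lie next to each other from *mt-Tg* through *mt-Nd3* to *mt-Tr*, with -1.26, -1.95 and -1.76, and the next gene, *mt-Nd4l*, had -0.31. This run lies between *mt-Co3* and *mt-Nd4l*, which have copies on chromosome 1, as has *mt-Nd3*. Whether unannotated copies take part in the values of *mt-Tg* and *mt-Tr* was not tested.

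**Figure D5:**
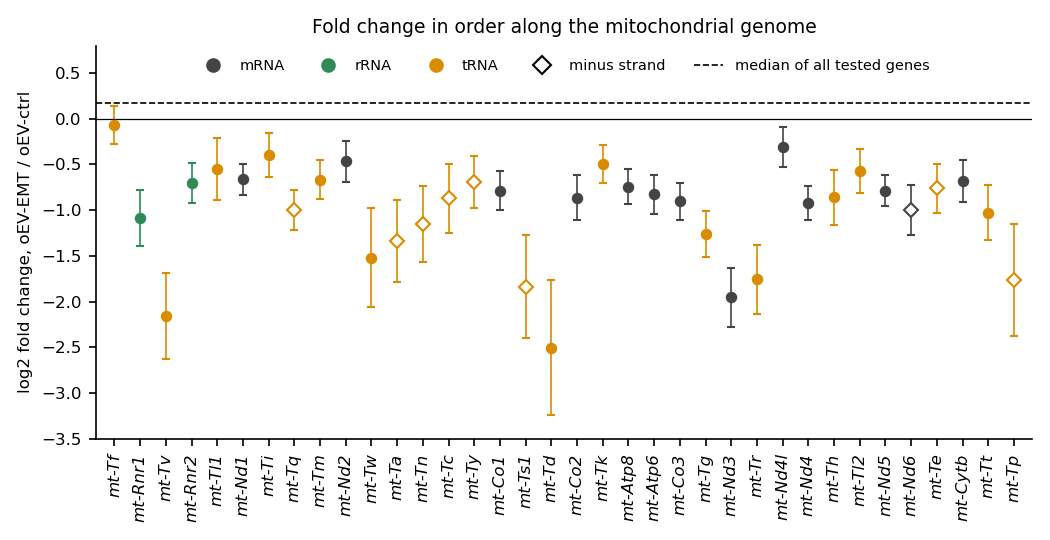
Log2 fold change (oEV-EMT against oEV-ctrl, on log2(FPKM + 1)) of the 36 tested genes in genome order, with bars of ± 1 SE from limma, colours by RNA class and open diamonds for the minus strand. All points lie below 0, from -2.50 at *mt-Td* to -0.07 at *mt-Tf*.

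Nuclear genes that act on the mitochondrial genome had fold changes near those of all tested genes. The lists hold 57 genes for transcription, RNA processing and stability, and replication, of which 56 were in the table and tested. By limma's unadjusted p at 0.05, 4 were higher and 0 lower in oEV-EMT, against 12.8% higher and 2.55% lower among all tested genes. After adjustment 0 of 56 passed. The median log2 fold change was 0.25, near the 0.17 of all tested genes. By list, the medians were 0.27 over 11 transcription genes, 0.22 over 32 processing genes and 0.25 over 13 replication genes, and 2, 7 and 2 of these lay below 0, where 29.9% of all tested genes did. *Ptcd3*, a protein of the mitochondrial ribosome, measured 35.5, 35.8 and 39.6 FPKM in oEV-EMT and 15.4, 23.8 and 25.9 FPKM in oEV-ctrl (log2 fold change 0.77, limma adjusted p = 0.190). *Pnpt1*, an RNA-degrading enzyme, measured 22.2, 23.8 and 24.7 FPKM against 10.6, 16.9 and 15.7 FPKM (log2 fold change 0.70, limma adjusted p = 0.214). Among the genes below 0, those with the lowest p were *Pde12*, which trims poly(A) tails, and the elongation factor *Tefm*, with log2 fold changes of -0.28 and -0.29 and limma adjusted p-values of 0.522 and 0.535. Without overlap between groups, 1 of the 56 was lower, *Tefm*, at 34.8, 46.5 and 49.8 FPKM against 51.2, 56.7 and 51.2 FPKM, and 9 were higher. Among all tested genes 4.34% were lower and 18.1% higher without overlap. *Tfam*, which packages mitochondrial DNA and starts its transcription, had a log2 fold change of 0.32 (limma adjusted p = 0.464). It was among the 9 higher without overlap, at 21.2, 20.5 and 22.6 FPKM in oEV-EMT against 16.6, 15.8 and 18.5 FPKM in oEV-ctrl.

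The cells and the depth behind these values were checked in the same libraries. Summed levels of 9 trophectoderm markers overlapped, from 3147 to 4752 FPKM in oEV-EMT and from 3087 to 4845 FPKM in oEV-ctrl. Most of that sum was *Krt18* and *Krt8*, with means of 2556 and 1179 FPKM in oEV-EMT and 2589 and 1191 FPKM in oEV-ctrl. The median log2 fold change of that list was -0.02, or -0.19 relative to all tested genes, and 5 of the 9 lay below 0. *Elf5*, at 0.67, had an unadjusted p under 0.05 in limma, as did 12.8% of all tested genes in that direction. *Eomes* and *Gata3* had -0.39 and -0.26. After adjustment 0 of the 9 passed. Summed levels of 8 epiblast markers were higher in oEV-EMT, from 107 to 148 FPKM against 60.3 to 104 FPKM, which the markers did not share evenly. *Nanog*, *Pou5f1* and *Fgf4* had log2 fold changes of 1.11, 0.97 and 0.99 and an unadjusted p under 0.05 in limma, as did 12.8% of all tested genes in that direction, while *Sox2*, *Esrrb* and *Prdm14* had -0.32, -0.06 and -0.02. After adjustment 0 of the 8 passed, and the median of the list relative to all tested genes was 0.02. Summed levels of 7 primitive endoderm markers ran from 137 to 267 FPKM against 182 to 238 FPKM, but most of the sum was *Dab2*, with means of 158 and 183 FPKM. The median log2 fold change of that list was 0.43, and 2 of the 7 had fold changes below 0. Without overlap between groups 0 were lower and 2 were higher, against 4.34% and 18.1% of all tested genes. *Gata4* and *Sox17*, at 0.82 and 0.95, had an unadjusted p under 0.05 in limma, as did 12.8% of all tested genes in that direction. After adjustment 0 of the 7 passed. Among 7 cumulus cell markers *Amh*, *Fshr*, *Ptx3* and *Inhba* were listed at 0 in all libraries and the sum was at most 2.24 FPKM, higher in oEV-EMT. Among 5 oviduct markers *Foxj1* was at 0, with sums of 11.6 to 29.97 FPKM against 16.3 to 27.6 FPKM. Most of these sums was *Krt7*, with means of 19.3 and 21.2 FPKM, and no other oviduct marker passed the filter. Among 5 blood markers *Hbb-bs*, *Hbb-bt* and *Ptprc* were at 0, and the sum was at most 4.41 FPKM. The part of these cells in the mitochondrial values was not tested. Depth was inferred from the steps in the low values and, relative to the deepest library, oEV-EMT 1, was 0.584 and 0.685 in the other oEV-EMT libraries and 0.483, 0.662 and 0.881 in oEV-ctrl. Between 19.8% and 26.9% of the low values lay near the steps or midway between them, so these depths and the fragment numbers drawn from them are rough. Deep and shallow libraries stood in both groups. In oEV-ctrl the shallowest library, 1, was the highest for 10 of the 13 mRNAs and the deepest, 3, the lowest for 10. In oEV-EMT the deepest library, 1, was the lowest for 8 mRNAs but the highest for the 2 rRNAs. The shallowest oEV-EMT library, 2, was the highest for 2 mRNAs and the lowest for 3. The part of depth in the mitochondrial values was not tested.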

How the data were processed

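RNA of 6 blastocyst pools, 3 per group, was sequenced after oligo(dT) selection. Per the labels the authors used mm10 and StringTie, which assembles transcripts, and the aligner is not given in the sources used here. They deposited 1 value per gene and library. The methods call these TPM, but the sums per library are larger than TPM allow and differ, so the deposited values were treated as FPKM. Reads shared by identical sequences cannot be assigned with certainty. Of 55487 Ensembl identifiers, 55141 matched GENCODE M21, the source of coordinates and sequences.

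Genes that reached 1 FPKM in 3 or more libraries were compared as log2(FPKM + 1) with limma 3.58.1 (trend and robust) in R 4.3.3, without covariates, and adjusted by Benjamini-Hochberg over 11924 genes. The script was tested on simulated data. Values per library were set against each other in two-sided exact permutation tests. Depth was inferred from the most frequent product of FPKM and length among low values, read as 1 fragment. It is no stated read total, and no counting interval was computed.

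All members were to be named, the tRNAs where they passed the filter, with nuclear copies that share at least 50% of their 50-base stretches and the 2 pathway genes with the lowest p in each direction. The members, lists and tests were chosen with earlier results of these data known. *mt-Ts2*, *Tfam* and the ratio of the rRNAs fall outside this rule and were chosen after their values were seen. Alternatives covered scaling, pseudocount, filter, variance model, each library in turn left out and a replicate block, and library weights were added after seeing the data. Python 3.11.15 and matplotlib 3.10.9 were used for figures.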

Additional observations from a re-analysis of the deposited data

How the results depend on the processing

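Across the other scalings, pseudocounts, filters and models, the median log2 fold change of the mRNAs relative to all tested genes stayed between -1.01 and -0.81, against -0.96 as reported, and between -1.13 and -0.82 when 1 library was left out. The median of all tested genes, 0.17 as deposited, was 0.23 after scaling the libraries to equal sums, 0.0099 after median-of-ratios scaling and -0.045 after upper quartile scaling. The number of tested members with a fold change below 0 was 35 or 36 of 36 in these settings and 37 of 37 without a filter, and the exception was *mt-Tf*, at 0.022 after scaling to equal sums and between -0.16 and 0.089 when 1 library was left out, the latter without oEV-EMT 2. The number of members past adjusted p 0.05 in limma, 0 as reported, was 1 at a threshold of 0.1 and 6 with library weights, which were chosen after seeing the data. Leaving out 1 library gave 0 to 1, the latter without oEV-EMT 1, where *mt-Nd3* had an adjusted p of 0.0378 in limma, and from 0.108 to 0.325 without each other library. Leaving out 1 library moved the fold changes of 6 other named genes by over 1.5 times, none of them past the threshold, with *mt-Tl1* at -0.11 without oEV-EMT 3 and -0.84 without oEV-EMT 2, *mt-Nd2* at -0.30 without oEV-EMT 1, *mt-Ti* at -0.24 without oEV-EMT 3, *mt-Te* at -0.45 without oEV-ctrl 1, *mt-Tl2* at -0.38 without oEV-ctrl 2, and *mt-Nd4l* at -0.52 without oEV-ctrl 1 and -0.15 without oEV-ctrl 3. Members without overlap between groups numbered 26 to 32 when 1 library was left out. The difference in the mitochondrial share then lay between -3.17 and -2.42 percentage points, that of mRNA against tRNA between 0.22 and 0.48, the median of the sums with nuclear copies between -0.96 and -0.69, and that of *mt-Nd6* against the other mRNAs between -0.31 and 0.056, the last without oEV-ctrl 1. The causes were not tested.

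The replicate numbers could not be shown to pair the libraries. Deviations from the group means correlated at 0.119, -0.0442 and 0.0388 between libraries with the same number. Between libraries with different numbers they correlated at -0.135 to 0.122. With 3 libraries per group these values cannot decide whether the libraries were paired. With a replicate block, 2 members passed adjusted p 0.05 in limma, *mt-Tv* and *mt-Nd3*, both at 0.02004, and over all genes the number was 21 against 0. That number over all genes was 151 with library weights, 4 without oEV-EMT 1, 1 without oEV-EMT 3 and 17 without oEV-ctrl 3.

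Depth limits the low tRNAs, where *mt-Ts1*, *mt-Tp* and *mt-Th* rest on fewer than 10 fragments in at least 1 library by the inferred depth. With 3 libraries per group, the exact test could not give a p below 0.1.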
